A study of Mus musculus with 2 samples.

Results

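Olfactory sensory neurons passing from the immature to the mature state were chosen by their measured RNA of both Gap43, a growth-associated protein of immature neurons, and Omp, olfactory marker protein, the classical marker of maturity. A barcode needed 5000 UMIs or more (unique molecular identifiers, each standing for 1 captured transcript) and 500 genes or more, with no more than 10% of UMIs from mitochondrial genes. Gap43 had to reach 0.05% and Omp 0.1% of its UMIs, with under 1% from the haemoglobin genes Hbb-bs and Hba-a1 and under 0.1% from Cyp2g1, a marker of sustentacular cells. The rule found 148 of 2954 kept cells, 118 of 1816 in the transgenic and 30 of 1138 in the wild-type library. These are called transition cells below. They were compared with cells of the same library that passed only the Gap43 minimum (Gap43-only, 166 transgenic and 37 wild-type) or only the Omp minimum (Omp-only, 684 and 465).

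The libraries were made from dissociated olfactory epithelium by 10x Genomics 3′ single-cell RNA-seq, to study which odorant receptor (OR) genes the neurons and their precursors express. The transgenic library came from 1 female mouse, 9 weeks old, of the line Tg(Or8a1-OR1A1,-MAPT/mCherry)D736Feins/J and hemizygous for that transgene. Its name cites Or8a1, a mouse OR gene, OR1A1, a human one, MAPT (tau) and mCherry, a red fluorescent protein. The other library came from 1 female, 8 weeks old, of genotype WT, labelled as a cross of 10G4-V2.2-#7/Jax with Bl6/129SF1/J. With 1 library per genotype, genotype cannot be told apart from strain, age, animal or preparation. No test was possible, and every interval covers counting error only.

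Olfactory neurons are replaced throughout life from basal stem cells. A newborn neuron grows an axon to the olfactory bulb and settles on 1 OR allele. It then builds the cilia and the signalling cascade with which it detects odorants, in which the receptor activates a G protein, adenylyl cyclase makes cyclic AMP, and a cyclic nucleotide-gated channel and a calcium-activated chloride channel carry the current. Gap43 is switched off as Omp comes on, so cells with both are few.

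Transition cells made up 6.50% of kept transgenic barcodes (exact 95% binomial interval 5.41 to 7.73%) and 2.64% of wild-type ones (1.79 to 3.74%). Among Gap43-only, transition and Omp-only cells together, they made up 12.2% (10.2 to 14.4%) in the transgenic library, of 968 cells, and 5.64% (3.84 to 7.95%) in the wild type, of 532. Gap43-only cells also took a larger share in the transgenic library, 17.1% (14.8 to 19.7%) against 6.95% (4.94 to 9.46%). The immature side of the lineage was thus more heavily sampled there, in 1 animal each.

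**Figure D1:**
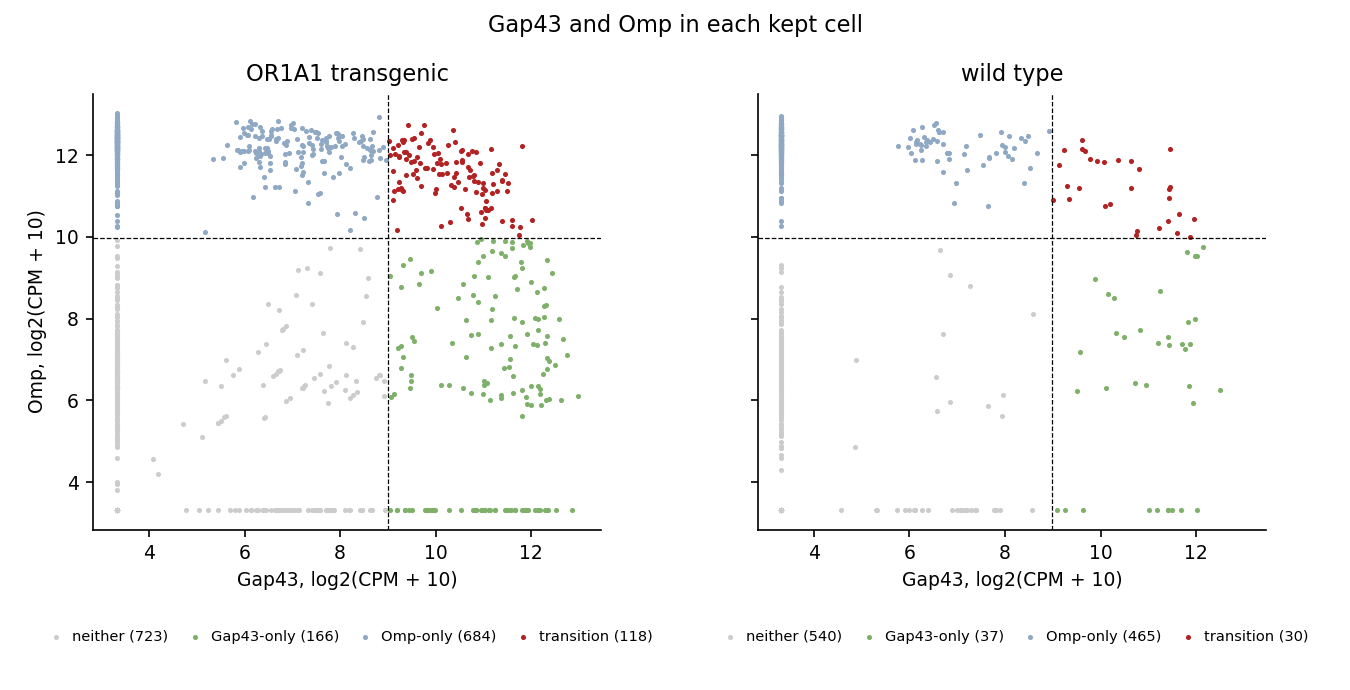
Gap43 (x axis) and Omp (y axis) in each kept cell, both as log2 of CPM, counts-per-million UMIs, plus 10, with the transgenic library left and the wild-type library right. Dashed lines mark the minimum of each gene, and the 118 and 30 transition cells (red) fill the upper right field.

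The cells form a continuous range across both minimums. The lowest Gap43 level among transition cells was 511 CPM (transgenic) and 505 CPM (wild type), and the highest among Omp-only cells was 485 and 472 CPM. For Omp the lowest inside was 1057 and 1022 CPM, against 978 and 854 CPM for the highest Gap43-only cell. Gap43 lay within 2-fold of its minimum in 46 of 118 and 11 of 30 cells, and Omp in 22 and 13. Neither minimum falls in a gap between separate kinds of cell.

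The transition cells were deeper and held fewer mitochondrial UMIs than their neighbours. Their median depth was 16890.5 transgenic and 20222 wild-type UMIs, above the Gap43-only (15921.5 and 14951) and Omp-only medians (13940 and 12503). The median mitochondrial share was 3.14% and 3.45%, against 5.37% and 5.13% in Omp-only and 3.96% and 4.51% in Gap43-only cells. Scrublet, which scores barcodes likely to hold 2 cells, marked 0 and 1 transition cells, but only 3 and 2 of all kept cells, too few for the caller to have worked. Among the 5% of kept cells with the highest scores were 15 transgenic (12.7%) and 2 wild-type (6.67%) transition cells. No barcode was shared between the transition cells of one library and the kept cells of the other. The part of doublets in the results was not tested beyond removing those high-scoring cells.

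Markers of most other cell types were low. Summed sustentacular markers stood at 34.2 and 17.9 CPM, against 1735 and 1048 CPM in free RNA (barcodes under 100 UMIs), and horizontal basal markers at 2.44 and 0 CPM. Sox10 and Frzb of ensheathing glia had no UMI in either library. The list for other chemosensory neurons was not low, at 434 and 660 CPM against 201 and 173 CPM in free RNA. Of its 4 genes Trpc2 and Gucy2d had no UMI, Gnai2 stood at 4.88 and 3.59 CPM, and Gnao1, a G protein subunit also found in immature olfactory neurons, at 429 and 657 CPM. Gnao1 was likewise at 467 and 533 CPM in Gap43-only cells. Neurog1, a factor of neuronal precursors, had no UMI, but the precursor list as a whole was not low. It summed to 909 and 1044 CPM, against 720 and 286 CPM in free RNA, and Sox11, Insm1 and Sox4 were among the genes found. Haemoglobin and related erythroid genes reached 125 and 59.2 CPM, against 11431 and 8064 CPM in free RNA. The rule limited Cyp2g1, a sustentacular marker, and the haemoglobin genes Hbb-bs and Hba-a1. The low sustentacular and erythroid sums are therefore partly set by the rule. Omp itself was found in free RNA at 1201 and 912 CPM, and Gap43 at 202 and 81.0 CPM.

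Calb2 (calretinin, a calcium-buffering protein) was not part of the rule and was the marker named for this stage. Its summed level in the transgenic library was 1579 CPM in Gap43-only, 2290 CPM in transition and 188 CPM in Omp-only cells. In the wild-type library the same stages gave 1632, 2341 and 522 CPM. Calb2 was therefore highest in the transition cells of both libraries, by a log2 ratio of 0.54 and 0.52 over Gap43-only cells and of 3.60 and 2.16 over Omp-only cells. It had a UMI in 107 of 118 transgenic and 30 of 30 wild-type transition cells. Per cell it ran from 0 through a median of 2377 to 5689 CPM in the transgenic library. Kept cells below both minimums, counted without the haemoglobin and Cyp2g1 limits, numbered 827 and 598. They are called cells with neither marker. A Calb2 UMI was seen in 11.5% (9.39 to 13.9%) and 6.19% (4.39 to 8.43%) of them, and Calb2 was in free RNA at 178 and 111 CPM. Above 1000 CPM were 94 of 118 (79.7%, 71.3 to 86.5%) and 26 of 30 (86.7%, 69.3 to 96.2%) transition cells, against 0.605% and 0% of cells with neither marker. Gap43-only cells also held Calb2, above 1000 CPM in 56.6% (48.7 to 64.3%) and 59.5% (42.1 to 75.2%).

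To see order within the stage, the transition cells of each library were split by their ratio of Gap43 to Omp UMIs into Gap43-rich, middle and Omp-rich groups, of 40, 39 and 39 transgenic and 10 wild-type cells each. The split uses the 2 genes of the rule, so other genes are described along it without a test. Calb2 ran at 2986, 2148 and 1701 CPM across the transgenic groups and at 2786, 2136 and 2109 CPM across the wild-type ones, so that it was highest beside the Gap43-only border in both.

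**Figure D2:**
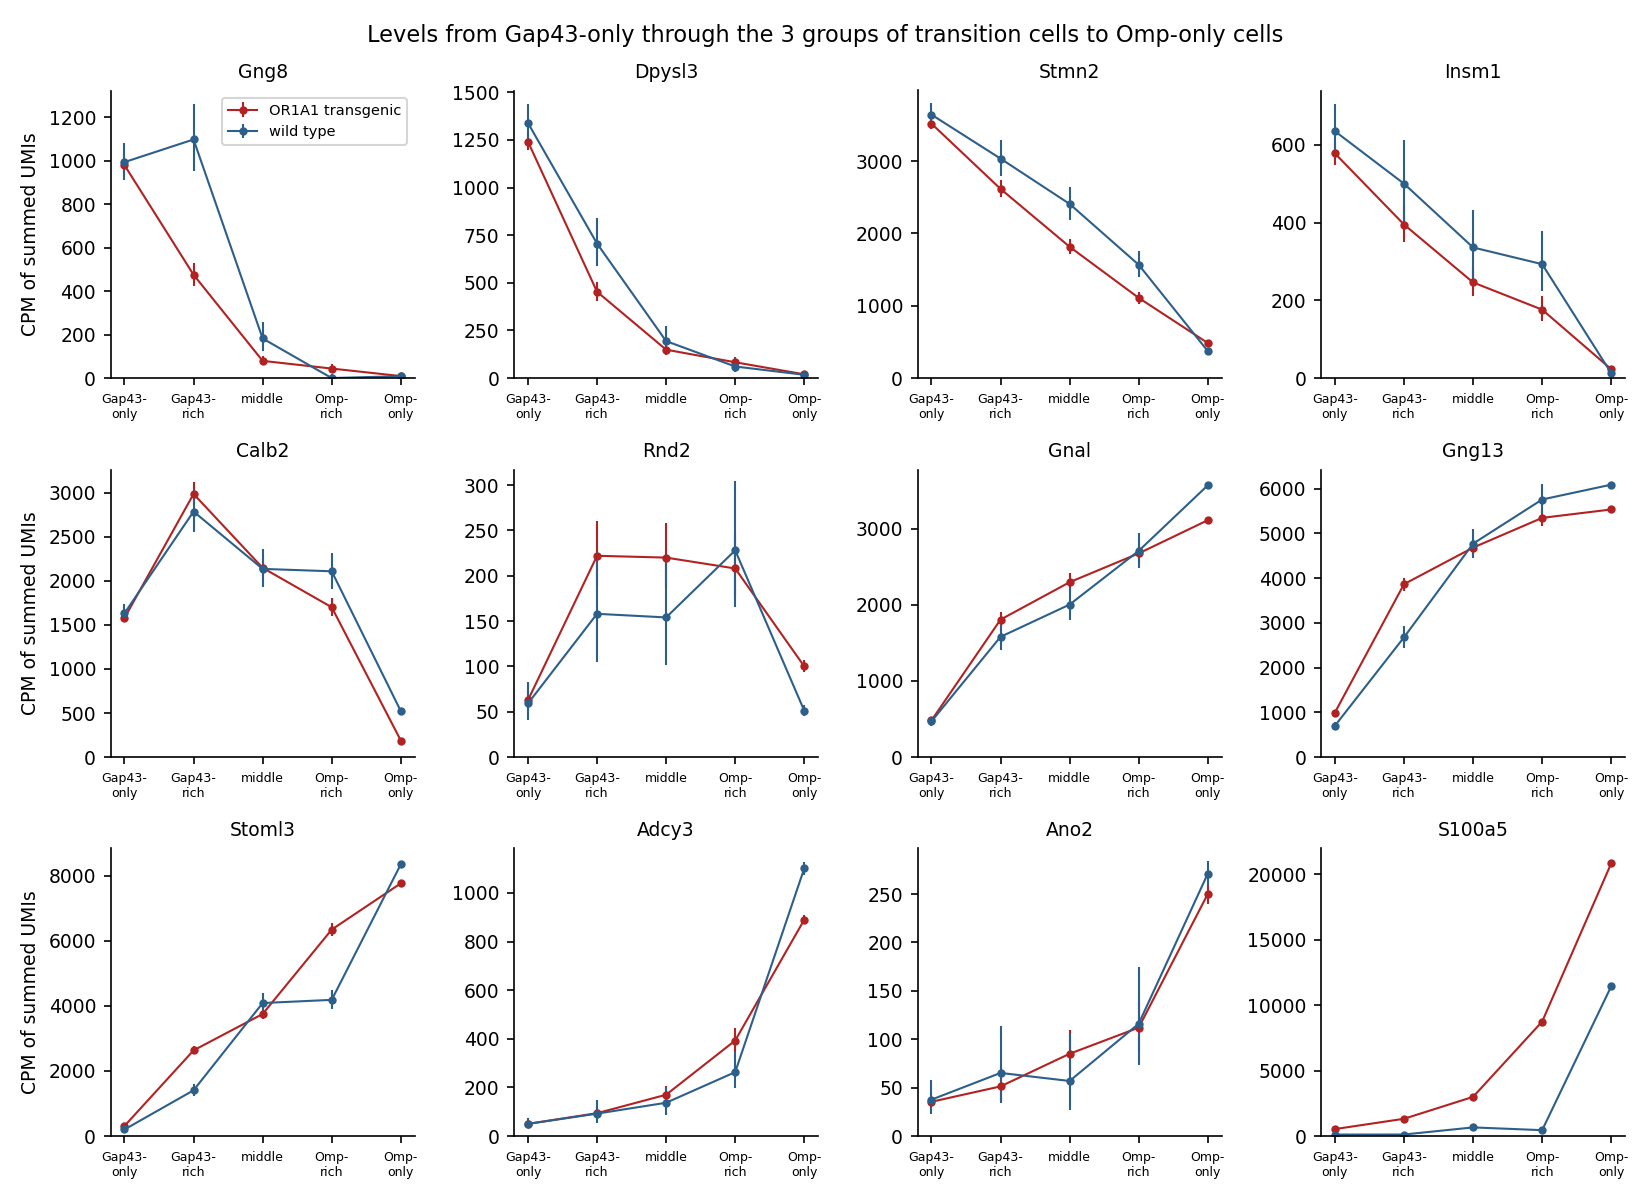
Levels of 12 genes as CPM of summed UMIs (y axis) in Gap43-only cells, in the Gap43-rich, middle and Omp-rich groups of transition cells, and in Omp-only cells (x axis), transgenic in red and wild type in blue, with 95% Poisson bars. Gng8 and Dpysl3 are low from the middle group on, Calb2 and Rnd2 are highest inside the transition, Gnal and Gng13 are raised from the Gap43-rich group on, and Adcy3 and S100a5 are highest in Omp-only cells.

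Over all genes, 208 of 2716 measured genes (7.66%) were at least 2-fold higher in transition than Gap43-only cells in both libraries, and 117 (4.31%) at least 2-fold lower. Genes were measured where 1 of the groups compared reached 20 CPM and 50 UMIs, in each library. A gene under 50 UMIs in the transition cells of a library was measured only through the neighbour. Against Gap43-only cells it could then not be called higher. Against Omp-only cells, 112 of 6392 genes (1.75%) were at least 2-fold higher and 127 (1.99%) lower. The transition cells thus stood further, in share of genes, from the Gap43-only than from the Omp-only cells, although the sets of measured genes differ with cell number. The rule drew on the same cells, so these counts describe the stage and test nothing.

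The genes of the odour-signalling cascade stood between the levels of the neighbours. Of 11 measured members of the list, 8 were at least 2-fold higher than in Gap43-only cells in both libraries and 0 lower, with median log2 ratios of 1.86 and 1.40, against medians of -0.021 and 0.017 over all measured genes. Against Omp-only cells 6 of 13 were at least 2-fold lower (Adcy3, Cnga4, Cngb1, Ano2, Slc24a4 and Pde1c) and 0 higher. Over all genes, 7.66% were higher than in Gap43-only cells and 1.99% lower than in Omp-only cells.

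Of the G protein subunits on the list, Gnal and Gng13 were well up. Gnb1 was measured, but was not 2-fold higher than in Gap43-only cells in both libraries. Gnal, the alpha subunit that couples ORs to the cyclase, stood at 481 CPM in transgenic Gap43-only cells. It then read 1807, 2299 and 2677 CPM across the groups and 3114 CPM in Omp-only cells. In the wild-type library the same steps read 469, 1581, 2005, 2710 and 3572 CPM. Gng13, a gamma subunit, went from 996 through 3866, 4684 and 5349 to 5537 CPM in the transgenic library. Gnal and Gng13 were thus several times their Gap43-only level in the cells that still held most Gap43.

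Other members were further from their Omp-only level. Adcy3, the adenylyl cyclase of the cascade, read 50.2 CPM in transgenic Gap43-only cells, 94.1, 170 and 393 CPM across the groups and 890 CPM in Omp-only cells. Its wild-type values were 50.1, 92.3, 137, 263 and 1101 CPM. Even the Omp-rich cells were below the Omp-only level in both libraries. Ano2, the calcium-activated chloride channel, read 35.4, 51.3, 85.0, 112 and 250 CPM in the transgenic library. Pde1c, a phosphodiesterase that breaks down cyclic AMP, read 72.8, 108, 193, 222 and 505 CPM there. Cnga2, the main subunit of the cyclic nucleotide-gated channel, was as near its Omp-only level as Gnal in the Gap43-rich group, at 62.2% against 58.0%. It read 114, 359, 396, 490 and 577 CPM, while its partner Cnga4 read 14.0, 92.7, 145, 187 and 333 CPM.

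**Figure D3:**
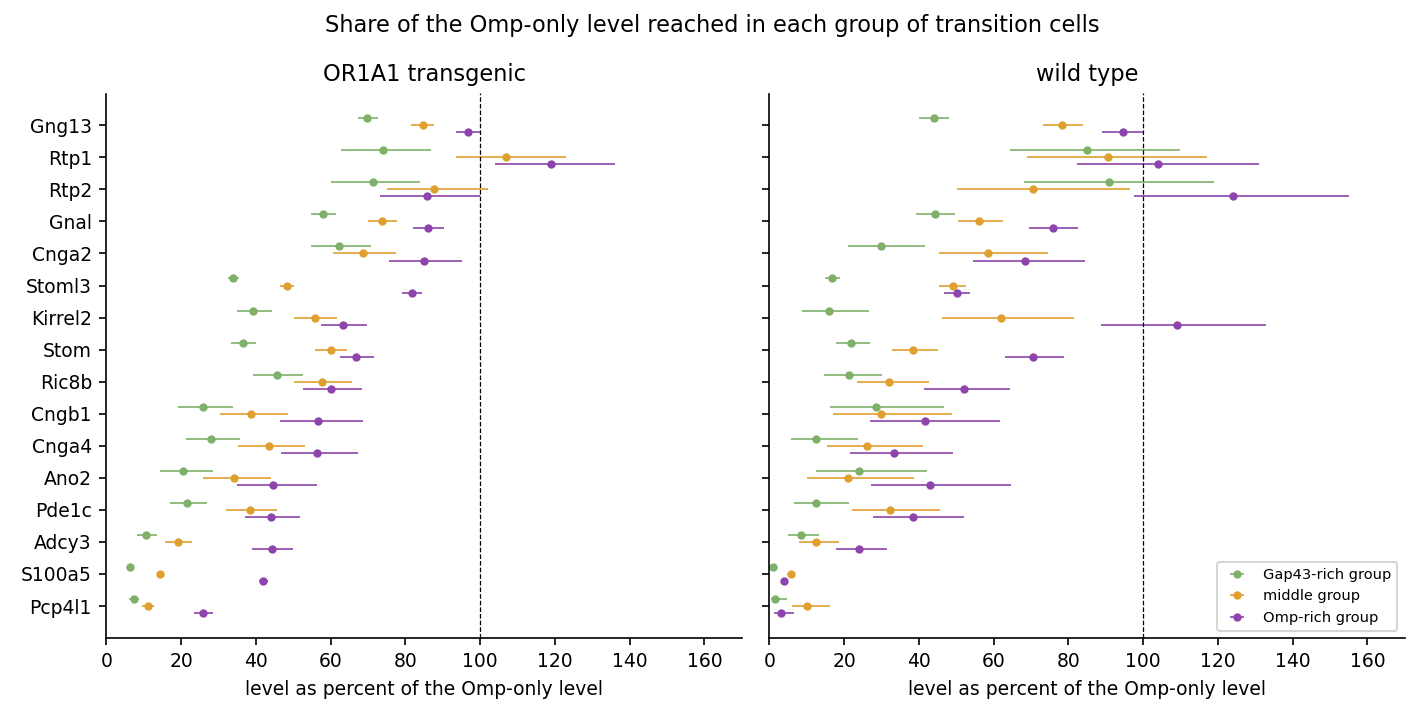
Level of 16 mature-neuron genes in the Gap43-rich (green), middle (orange) and Omp-rich (purple) groups of transition cells, as a percentage of the level in Omp-only cells of the same library (x axis), with 95% intervals from counts. Gng13 and Rtp1 lie near 100 in the Omp-rich group of both libraries, while Adcy3, S100a5 and Pcp4l1 lie below 50 in every group of both libraries.

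Genes that serve the receptor and the cilium differed among themselves. Rtp1, which carries ORs to the cell surface, was at 308 CPM in transition and 308 CPM in Omp-only cells of the transgenic library, and at 353 and 378 CPM in the wild type, against 130 and 163 CPM in Gap43-only cells. Stoml3, a stomatin-like protein of olfactory cilia, was among the genes furthest above Gap43-only cells, at 311, 4210 and 7768 CPM across the transgenic and 202, 3238 and 8353 CPM across the wild-type stages. Of 26 genes on the cilium list 11 were measured against Gap43-only cells, and only Arl3 was 2-fold higher, against 7.66% of all genes. Against Omp-only cells 0 of 25 were called in either direction, where 1.75% and 1.99% of all genes were. Both counts are near the share over all genes. Summed, the cilium list read 2306.4, 3138.0 and 2853.5 CPM across the transgenic and 2174.4, 3074.5 and 3061.1 CPM across the wild-type stages. It was thus above the Gap43-only level in both libraries, by less than 2-fold.

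The 10 genes furthest above Gap43-only cells in both libraries were Nrn1l, Dcdc2a, Stoml3, Stmnd1, Trarg1, Kcnc4, Tmem74bos, A730046J19Rik, Eml2 and Stom. Nrn1l, a neuritin-like gene, read 28.8, 492 and 1001 CPM across the transgenic and 7.16, 301 and 785 CPM across the wild-type stages. Kcnc4, a voltage-gated potassium channel, read 16.0, 159 and 447 CPM and 10.7, 135 and 500 CPM. Some genes had levelled off by this stage. Tmem74bos read 65.0, 659 and 697 CPM in the transgenic and 55.5, 531 and 580 CPM in the wild-type library.

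The early genes were lost at different points. Tex15, best known from germ cells, stood at 413 and 397 CPM in Gap43-only cells and at 1.95 and 0 CPM in transition cells. Crabp1, a retinoic acid-binding protein, went from 718 and 464 CPM to 3.91 and 0 CPM. The proneural factor Nhlh1 went from 293 and 401 CPM to 15.1 and 30.5 CPM. Sox11, a transcription factor of young neurons, kept more, at 392 and 400 CPM against 2302 and 2867 CPM. Of the precursor list, 5 of 6 measured genes were at least 2-fold lower than in Gap43-only cells (Nhlh1, Nhlh2, Hes6, Ezh2 and Sox11). Against Omp-only cells 4 of 5 were still at least 2-fold higher (Ezh2, Insm1, Sox11 and Sox4). Over all genes these shares were 4.31% and 1.75%.

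A second set of immature genes remained. Of 14 measured immature neuron genes, 7 were at least 2-fold lower than in Gap43-only cells (Gng8, Stmn1, Dpysl3, Dpysl5, Tex15, Hdac2 and Marcksl1), and 8 of 14 were still at least 2-fold higher than in Omp-only cells. Over all genes these shares were 4.31% and 1.75%. Stmn1, a microtubule regulator, read 5539, 2069 and 200 CPM in the transgenic and 5700, 2732 and 161 CPM in the wild-type library. Dcx, a microtubule-binding protein of migrating and growing neurons, read 506, 362 and 133 CPM and 600, 592 and 181 CPM. Insm1, a zinc-finger factor of neurogenesis, read 578, 275 and 22.8 CPM and 635, 375 and 12.5 CPM, so much of it was still there when Omp was on. Gng8, a gamma subunit of immature neurons, dropped steeply inside the stage, from 475 through 79.1 to 43.7 CPM in the transgenic and from 1097 through 182 to 0 CPM in the wild-type groups.

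Growth cone and cytoskeleton genes behaved likewise. Apart from Gap43, which chose the cells, 7 of 17 measured members were at least 2-fold lower than in Gap43-only cells (Dbn1, Marcks, Basp1, Tubb2b, Mapt, Tmsb10 and Cotl1) and 8 of 15 at least 2-fold higher than in Omp-only cells. The shares over all genes were 4.31% and 1.75%. Basp1, a membrane protein of growth cones, read 999, 261 and 28.1 CPM in the transgenic and 1122, 264 and 17.9 CPM in the wild-type library. Tmsb4x, an actin-binding peptide, went the other way, with 6340, 13164 and 12638 CPM and 6887, 13409 and 13167 CPM. Tubulin Tubb2b read 1921, 461 and 39.5 CPM and 2187, 709 and 47.9 CPM.

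The genes furthest above Omp-only cells were Stk32a, Gng8, Fabp5, Pde8a, Insm1, Dpysl3, Tubb2b, Camk2n1, Stmn1 and Basp1. Camk2n1, an inhibitor of calcium/calmodulin kinase II, was still at 328 and 490 CPM, against 28.4 and 31.0 CPM in Omp-only cells. Those furthest below were Gucy1b2, Stap1, Ankrd33b, Fxyd2, Nppc, Mob3b, Nap1l5, Clip4, Cdh23 and Rab37. They are low genes, at most 7.33 CPM in transition cells, and Gucy1b2, a guanylate cyclase subunit found in a minority class of olfactory neurons, had 0.488 and 0 CPM against 24.5 and 35.4 CPM.

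Few genes were highest in the transition itself. Of 2669 genes measured in every comparison, 2 (0.0749%) were at least 2-fold above both neighbours in both libraries and 1 (0.0375%) 2-fold below. Gm20531 read 71.2, 183 and 32.4 CPM across the transgenic and 50.1, 170 and 21.0 CPM across the wild-type stages. Rnd2, which acts in the migration of young neurons, read 62.7, 217 and 100 CPM and 59.1, 181 and 51.1 CPM. The gene below both was Gm13589, at 54.9, 17.1 and 125 CPM and 100, 8.97 and 205 CPM. Ranked by the smallest of their 4 ratios, Mfge8, Usp24, 4932412D23Rik, Anxa5, Borcs7, Ccdc28b, Pcdh19, Pcdh10, Tmem17 and Hacd1 came next. Anxa5, a calcium-dependent phospholipid-binding protein, read 327, 551 and 282 CPM and 315, 547 and 264 CPM.

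Adhesion and guidance genes had 3 of 15 measured members at least 2-fold above Gap43-only cells, where 7.66% of all genes were. They had 1 of 19 below Omp-only cells, near the 1.99% over all genes. Epha5, an ephrin receptor, accounted for both kinds of call, at 60.7, 421 and 991 CPM and 23.3, 316 and 738 CPM. Kirrel2, a homophilic adhesion molecule that sorts OR axons, read 87.6, 530 and 1008 CPM and 17.9, 303 and 478 CPM. Plxna4, a semaphorin co-receptor, read 67.7, 194 and 243 CPM and 55.5, 212 and 287 CPM, near its mature level.

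Among the regulators of receptor choice, 3 of 17 measured were at least 2-fold lower than in Gap43-only cells, where 4.31% of all genes were. Kdm1a, the histone demethylase that permits OR choice and must then decline, read 256, 126 and 83.8 CPM in the transgenic and 315, 140 and 101 CPM in the wild-type library. Ldb1, which bridges Lhx2-bound enhancers, read 123, 45.9 and 50.4 CPM and 183, 57.4 and 69.7 CPM. Nfia read 125, 31.8 and 23.1 CPM and 233, 62.8 and 61.9 CPM. Of the unfolded protein response genes that relay OR expression, 0 of 7 differed 2-fold from Gap43-only and 0 of 11 from Omp-only cells, which is near the shares over all genes for so short a list. Atf5, the factor of that relay, read 2521, 2504 and 2243 CPM and 2217, 2284 and 1972 CPM. Oxidative phosphorylation genes had 0 of 23 at 2-fold against either neighbour, where 7.66% and 4.31% of all genes were higher and lower than in Gap43-only cells.

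Counted at 3 or more UMIs, most transition cells held exactly 1 OR. At that count 72.0% of transgenic transition cells had exactly 1 endogenous OR (63.0 to 79.9%), 21.2% had none (14.2 to 29.7%) and 6.78% had 2 or more (2.97 to 12.9%). In the wild type 90.0% had exactly 1 (73.5 to 97.9%), 3.33% none (0.0844 to 17.2%) and 6.67% 2 or more (0.818 to 22.1%). Gap43-only cells had exactly 1 in 59.0% (51.1 to 66.6%) and 64.9% (47.5 to 79.8%), and Omp-only cells in 66.7% (63.0 to 70.2%) and 88.6% (85.4 to 91.3%). In cells with neither marker, at median depths of 13526 and 12533.5 UMIs, an OR was counted in 4.72% and 3.01%, so the shares in neurons stand far above what free RNA gives. With each cell thinned to 5000 UMIs, exactly 1 OR was found in 71.2% and 93.3%. The choice of 3 UMIs decides this: counting from 1 UMI, exactly 1 OR was found in 33.9% and 26.7%, and 2 or more in 56.8% and 73.3%.

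**Figure D4:**
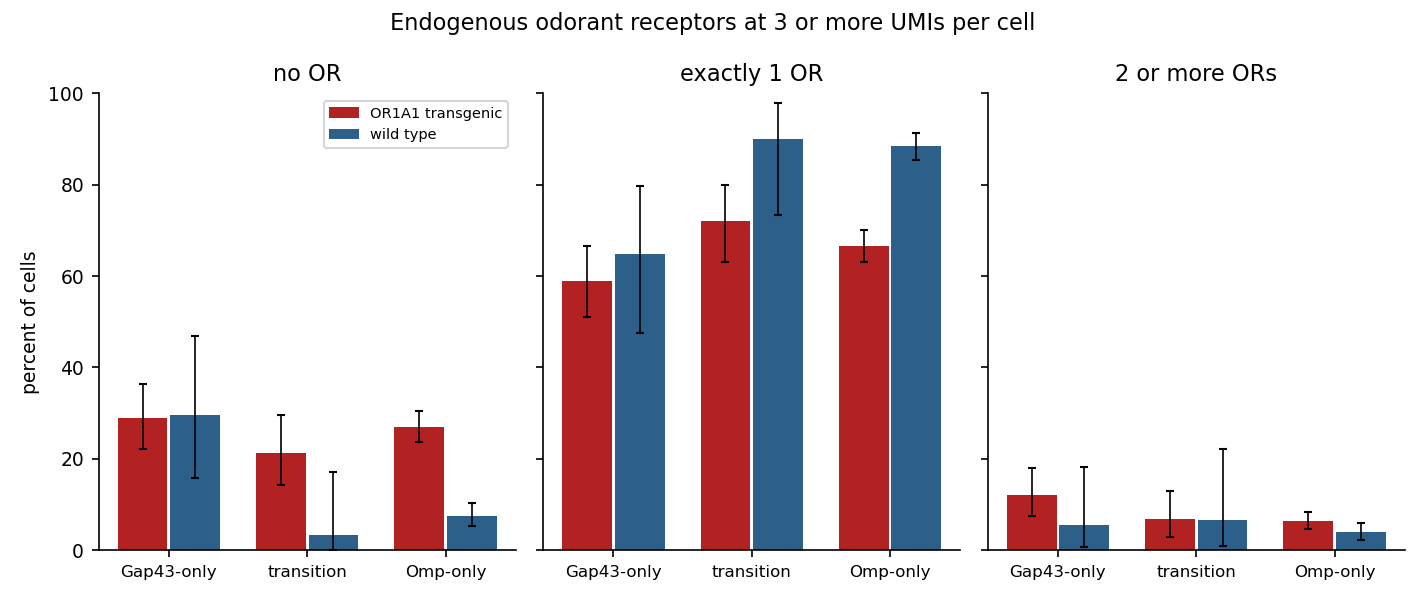
Percent of cells (y axis) with no, exactly 1, and 2 or more endogenous odorant receptors at 3 or more UMIs, by stage (x axis), transgenic in red and wild type in blue, with exact 95% binomial bars. Wild-type transition cells stand with Omp-only cells at about 90% with 1 receptor, and the transgenic bars for no receptor stay above 20% at every stage.

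The receptor that led a cell, the one with most UMIs, had a median of 100 UMIs in transgenic and 128 in wild-type transition cells, and it held a median of 99.0% and 99.3% of a cell's OR UMIs. Low-level extra receptors were fewer than earlier. Counting any OR with 1 UMI, Gap43-only cells held a mean of 3.57 and 3.78 ORs, transition cells 1.87 and 2.23, and Omp-only cells 1.71 and 1.97. Summed OR RNA was 3897, 5818 and 5903 CPM in the transgenic and 3531, 7103 and 9788 CPM in the wild-type library. Among transgenic cells without a transgene UMI, it was 6066 CPM in transition and 7945 CPM in Omp-only cells, so that it was below the Omp-only level there as in the wild type.

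Hardly any receptor led more than 1 cell. In the transgenic library 87 ORs led 93 cells, with Olfr1507 in 3 and Olfr190, Olfr237, Olfr31 and Olfr476 in 2 each. In the wild type 25 ORs led 29 cells, with Olfr1039, Olfr27, Olfr330 and Olfr389 in 2 each. Between the libraries 0 leading ORs were shared. With only 87 and 25 leading ORs among the 1104 counted, this says nothing about a difference in repertoire. Class I receptors led 3 of 92 (3.26%, 0.678 to 9.23%) and 1 of 29 (3.45%, 0.0873 to 17.8%) classed cells, against 8.71% (6.35 to 11.6%) and 14.1% (10.9 to 17.8%) in Omp-only cells. In Gap43-only cells they led 4 of 115 (3.48%, 0.956 to 8.67%) and 1 of 26 (3.85%, 0.0973 to 19.6%), so a low share was not particular to the transition. Of the 13 pairs of ORs found together in 8 transgenic cells, 6 lay within 200 kb of each other in the reference annotation, as did 2 of 2 in the wild type. A cell of 34341 UMIs, the deepest of the transgenic transition cells, held 4 ORs and gave 6 of the 13 pairs.

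The transgene feature had a UMI in 41 of 118 transgenic transition cells, 34.7% (26.2 to 44.1%), and 3 or more in 22, 18.6% (12.1 to 26.9%). Gap43-only cells stood at 26.5% and 9.04%, and Omp-only cells at 48.2% and 28.1%. In cells with neither marker the shares were 6.65% and 0.484%. None of 30 wild-type transition cells had a UMI of it, which allows a share of such cells of up to 10.0%, taking 3 counts as the limit. Within the stage it was seen in 30.0%, 33.3% and 41.0% of the Gap43-rich, middle and Omp-rich groups, whose intervals overlap.

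Transgene and endogenous receptor were mostly found in different cells. Of 77 transition cells with no transgene UMI, 74 (96.1%, 89.0 to 99.2%) had an endogenous OR, close to the 96.7% (82.8 to 99.9%) of wild-type cells. Of the 41 cells with 1 or more transgene UMIs 19 (46.3%, 30.7 to 62.6%) had one, and of the 22 with 3 or more, 4 (18.2%, 5.19 to 40.3%). Neither was counted in 3 of 118 cells (2.54%, 0.527 to 7.25%). With the transgene counted from 3 UMIs these were 7 (5.93%, 2.42 to 11.8%), and from 5 UMIs 10 (8.47%, 4.14 to 15.0%). The transgene was ahead of every endogenous OR in 18 cells, 15.3% (9.30 to 23.0%), against 6.63% of Gap43-only (3.35 to 11.5%) and 21.6% of Omp-only cells (18.6 to 24.9%).

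**Figure D5:**
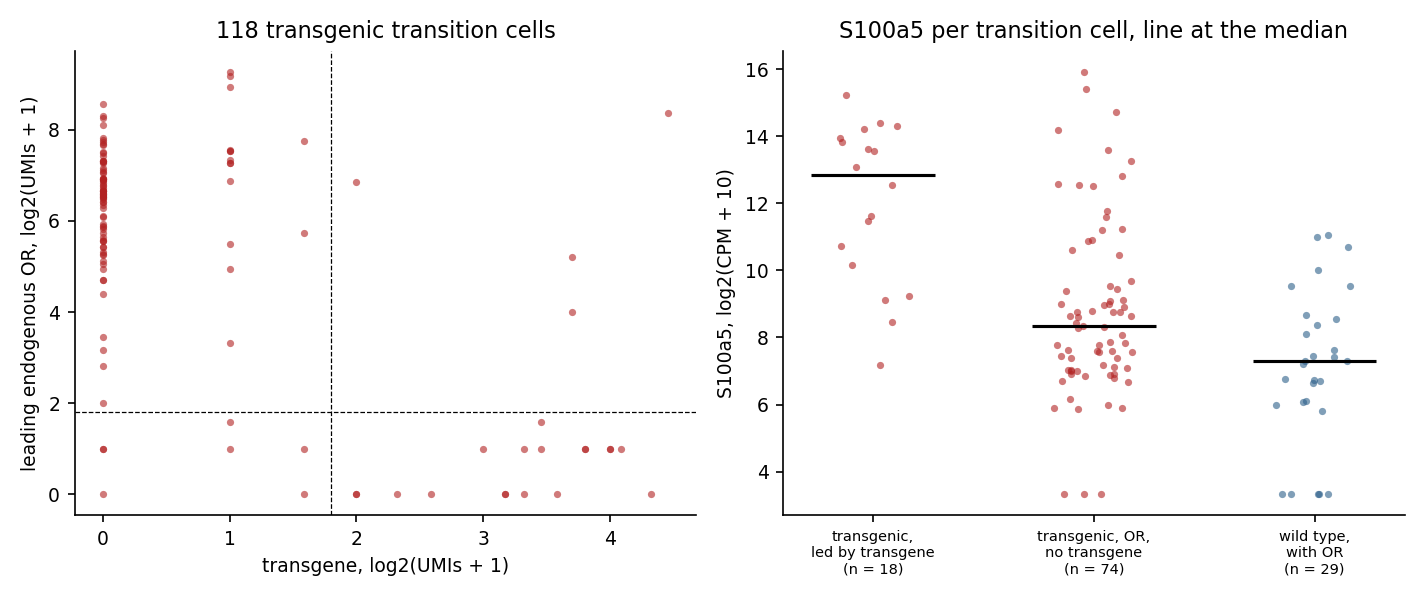
Left, transgene UMIs (x axis) against UMIs of the leading endogenous receptor (y axis), both as log2 of UMIs plus 1, in the 118 transgenic transition cells, with dashed lines between 2 and 3 UMIs. Right, S100a5 per transition cell as log2 of CPM plus 10, with a line at each median: 7349 CPM in 18 transgene-led cells, 312 CPM in 74 transgenic cells with a receptor and no transgene, and 146 CPM in 29 wild-type cells with a receptor.

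S100a5, a calcium-binding protein whose expression follows odour-evoked activity, had the highest variance over mean of 4364 ranked genes among the transgenic transition cells. The ranking left out odorant receptor, mitochondrial, ribosomal protein, added and rule genes, and genes with few UMIs. Its variance over its mean was 113 in those cells thinned to 5000 UMIs, against a median of 1.06 over 4364 genes. In the wild type it was 4.74, below Malat1 (37.4), Tmsb4x (18.3) and others. Per cell S100a5 ran from 0 through a median of 425 to 62312 CPM in the transgenic and from 0 through 142 to 2104 CPM in the wild-type library. Above 1000 CPM were 40 of 118 and 4 of 30 cells. A minority of strongly expressing cells thus carried most of it.

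S100a5 was high in a larger share of the cells led by the transgene, a split made after values had been seen. It was above 1000 CPM in 14 of 18 transgene-led cells and in 18 of 74 cells with an endogenous OR and no transgene. Transgene-led cells were still the smaller part of the 40, and held 2577 of the 8762 S100a5 UMIs against 4643 in the 74. Pcp4l1, a Purkinje cell protein-like gene also linked to activity, had medians of 495 and 0 CPM in the same cells. Calb2 was the reverse, with a median of 700 CPM and 7 of 18 cells at 0 UMIs in transgene-led cells, against 2578 CPM and 2 of 74. Gng8 summed to 18.8 and 202 CPM. These cells come from 1 animal and are not replicates.

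Between the libraries, 147 of 6146 measured genes (2.39%) were at least 2-fold higher in transgenic transition cells and 49 (0.797%) lower. Of these, 67 and 23 are odorant receptors. Leaving out receptor, mitochondrial, ribosomal protein, added and rule genes, a choice made after the counts were seen, leaves 76 and 25. The minimum of UMIs per gene was a higher CPM in the wild type, whose transition cells summed to 557480 UMIs against 2047158 transgenic ones. A gene low in the transgenic cells thus needed a higher level in the other library to be measured. The higher and lower counts can therefore not be weighed against each other. With 5 UMIs as the only filter, more genes were lower than higher, as given below. S100a5 was at 4280 CPM against 407 CPM, a log2 ratio of 3.39 (3.20 to 3.59). In Omp-only cells it was 20815 against 11429 CPM, so the gap was there on a smaller scale. Cells of both libraries were also binned by the ratio of Gap43 to Omp, with the same cuts. From the Gap43-rich to the Omp-rich bin S100a5 read 1351, 3007 and 8141 CPM (transgenic) and 298, 493 and 450 CPM (wild type). Among cells with an OR and no transgene it remained 3599 against 424 CPM. Pcp4l1 was at 359 and 48.4 CPM, a log2 ratio of 2.84 (2.34 to 3.50). In free RNA S100a5 stood at 7062 and 3646 CPM and Pcp4l1 at 454 and 205 CPM, higher in the transgenic library too, and the part of free RNA in these differences was not tested.

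Several of the other largest ratios rest on few cells. All 81 UMIs of Neurod4, a proneural factor, were in 1 transgenic cell, and the 85 of Gm48860 in 2. The 55 of H2-M10.1 were in 4 cells. Avp had 50 of its 58 UMIs in 1 cell. More widely spread were Miat, a long non-coding RNA, with 63 UMIs in 43 cells, Dpp7 with 59 in 47, Gm3896 with 80 in 29 and Ifit1 with 69 in 26. None of these 4 had a UMI in wild-type transition cells, so with 3 counts as the floor over the group they were at least 5.72-fold, 5.36-fold, 7.26-fold and 6.26-fold higher. Miat was also 30.0 and 27.7 CPM in transgenic Gap43-only and Omp-only cells against 1.79 and 0.501 CPM, so it differed at every stage. Kbtbd11 read 34.2 against 1.79 CPM.

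On the lower side stood Obp2a, 4932412D23Rik, Ehmt1, Sytl1, Tppp3, Wdr17, 1500004A13Rik, Gnas, Cep250 and Map2. Obp2a, an odorant-binding protein secreted by glands, was at 14.7 CPM against 194 CPM. It was also more abundant in the free RNA of the wild-type library, and the part of that RNA was not tested. Ehmt1, a histone methyltransferase, was at 48.8 against 136 CPM, and likewise at 67.4 against 132 CPM in Gap43-only and 36.7 against 89.8 CPM in Omp-only cells. Map2, a dendritic microtubule protein, was at 40.1 against 95.1 CPM. Gng8 was at 203 against 420 CPM, a log2 ratio of -1.05 (-1.28 to -0.81).

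The Gap43-rich wild-type cells carried that Gng8 difference. In matched bins Gng8 read 471, 116 and 44.6 CPM in the transgenic and 1018, 122 and 0 CPM in the wild-type library. The Gap43-rich bin held 38 and 11 cells, and the counting intervals of the middle bin overlap (91.6 to 144 and 76.3 to 184 CPM).

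Ebf factors bind TCCC followed by GGGA with any 2 bases between, letters that read the same on both strands, and are abundant in olfactory neurons: Ebf1 stood at 1143 and 1564 CPM in transition cells. The motif was searched from 250 bases before to 50 after the start of each gene in the RefSeq promoter table (GRCm38.p6), and 1.06% of all 27025 genes held it. Of 169 genes at least 2-fold above Gap43-only cells with an entry, 5 held it (2.96%), namely Acbd7, Acsm4, Cmip, Gfy and Ptprr. Of 92 at least 2-fold lower, 1 did (1.09%), Dpysl5. The share was 1.43% over all measured genes with an entry. The other motif searched, TAATTA, a core of homeodomain sites that also reads the same on both strands, was in 6.12% of all promoters and 3.32% of those of measured genes. It was in 8 of 169 genes higher (4.73%) and 3 of 92 lower (3.26%) than in Gap43-only cells. Of 105 genes lower than in Omp-only cells 14 held it (13.3%, against 3.26% of measured genes), 7 of them receptors, and of 75 higher 1 did (1.33%). Counts are small, and a match describes the letters only. The stretches below are shown because they place the motif upstream of genes that differed in each direction, with the motif in capitals.
Gfy, chr7:45179600-45179669, minus strand: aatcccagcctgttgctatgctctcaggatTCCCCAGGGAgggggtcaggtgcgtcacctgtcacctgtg
Acsm4, chr7:119689978-119690025, plus strand: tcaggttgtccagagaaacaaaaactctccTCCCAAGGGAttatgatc
Ptprr, chr10:116143803-116143872, plus strand: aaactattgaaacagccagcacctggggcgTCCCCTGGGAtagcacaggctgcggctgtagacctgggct
Dpysl5, chr5:30711481-30711550, plus strand: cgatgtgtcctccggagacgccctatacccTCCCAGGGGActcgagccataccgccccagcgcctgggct

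Gfy, a Golgi protein of olfactory neurons, had its motif starting 42 bases before the gene start. It read 740, 1663 and 2326 CPM across the transgenic and 793, 1589 and 2548 CPM across the wild-type stages. Dpysl5, a collapsin response mediator of growth cones, with the motif at 53 bases, read 259, 107 and 34.7 CPM and 313, 115 and 36.2 CPM. The same letters thus stood upstream of a gene higher and a gene lower than in Gap43-only cells.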

How the data were processed

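Raw UMI counts per gene and barcode were deposited by the authors as unfiltered matrices. Per the submitters' processing notes the tool was Cell Ranger 6.1.1 and the build GRCm39. The file headers give Cell Ranger 4 instead. The sequences behind the 2 added features (1A1_tg, taken as the transgene, and 10G4) are not given in the sources used here. 3′ counts cannot separate near-identical ORs, a gene from an overlapping one, or mouse Mapt from a tau sequence in the construct.

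UMIs were summed over the cells of a stage and given as CPM. Log2 ratios had 1 UMI added to each sum, with conditional binomial 95% intervals. CPM carry Poisson and shares Clopper-Pearson 95% intervals. ORs were the 1104 Olfr genes, counted at 3 UMIs and the transgene at 1. Ratios and calls were tested on simulated data. Software was Python 3.11.15, numpy 2.4.6, scipy 1.17.1, pandas 2.3.3 and scanpy 1.11.5 (Scrublet). No doublet was removed.

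Named genes are, outside receptor, mitochondrial, ribosomal and rule genes, the 10 with the largest ratio in each direction over each neighbour (by the smaller of the 2 libraries) and between genotypes, the 12 highest above and 5 lowest below both neighbours, the leading ORs, and members of 14 gene lists. Members and lists were chosen with earlier results of these data known. The labels do not say that stages differ in time, so the order of stages is that of Gap43 and Omp.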

Additional observations from a re-analysis of the deposited data

Results flagged for a closer look

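For 3 genes the ratio between stages had opposite signs in the libraries, with intervals on either side of 0. The difference between libraries was not tested in any of them. Pcp4l1 over Gap43-only cells had a log2 ratio of 1.70 (1.5 to 1.91) for transgenic and -1.21 (-1.95 to -0.57) for wild-type cells, where it rests on 27 UMIs in 5 cells. Pcdh7, a protocadherin, over Omp-only cells had 0.75 (0.35 to 1.09) in the wild-type and -0.43 (-0.65 to -0.23) in the transgenic library. Kcnk10, a potassium leak channel, over Omp-only cells had 0.43 (0.21 to 0.64) for transgenic and -0.58 (-1.11 to -0.15) for wild-type cells.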

How the results depend on the processing

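Of 418 values recomputed under other settings, 360 stayed within their error or within 1.5 times of a count and 58 moved; no median or Calb2 ratio changed sign. The share of transition cells (6.50% transgenic, 2.64% wild type) was 8.26% transgenic at a Gap43 minimum of 0.025%, 3.96% and 1.67% at 0.1%, 8.09% transgenic at an Omp minimum of 0.05%, 5.29% and 1.49% at 0.2%, 7.90% transgenic at a minimum of 10000 UMIs and 14.0% and 5.00% at 5% mitochondrial UMIs.

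The Calb2 log2 ratio over Gap43-only cells became, for transgenic and wild type, 0.61 (transgenic) at Gap43 0.1%, 0.39 (wild type) at 0.025%, 0.78 (transgenic) at Omp 0.05%, 0.38 and 0.37 at Omp 0.2%, 0.45 and 0.25 at 5% mitochondrial, 0.64 and 0.68 thinned, 0.63 and 0.66 by the mean over cells and 0.62 (transgenic) with median-ratio scaling. Over Omp-only cells it became 3.69 and 2.04 at Gap43 0.025%, 3.29 (transgenic) at 0.1%, 3.02 and 2.00 at 5% mitochondrial, 3.76 (transgenic) without the top 5% of Scrublet scores and 3.51 (transgenic) with median-ratio scaling.

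With ORs counted at 1 UMI, transgenic cells with none, 1 and 2 or more were 9.32%, 33.9% and 56.8%, and wild-type cells 0%, 26.7% and 73.3%; the wild-type share with none was also 0% at Gap43 0.1%. An OR was found in 75.6% of cells with the transgene at 1 UMI for both. At 3 UMIs for both, the transgene was in 18.6% and an OR in 18.2% of those; at 5 UMIs these were 15.3% and 16.7%, and an OR was in 89.0% of cells without the transgene.

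Counts of genes moved most. Over Gap43-only cells (208 higher, 117 lower) they were 87 and 60 at Gap43 0.1%, 121 higher at Omp 0.2%, 52 and 41 thinned, and 576 and 587 with 5 UMIs as the only filter. Over Omp-only cells that filter gave 688 and 301. Between genotypes (147 and 49) they were 55 and 31 thinned, 518 and 829 with that filter, and 76 and 25 without receptor, mitochondrial, ribosomal protein, added and rule genes. That last setting was added after seeing the data. With the 5-UMI filter the mature signalling median was 1.25 (transgenic, over Gap43-only) and -0.87 (wild type, over Omp-only). Thinning leaves fewer genes measured and the 5-UMI filter more; the cause of the other shifts was not tested.

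Signs of single genes changed for Avp (5.07 over Omp-only at Gap43 0.025%; -0.24 over Gap43-only and -0.89 between genotypes at 0.1%), Pcp4l1 (1.13 over Gap43-only in the wild type at 0.025%), 4932412D23Rik (-0.03 over Gap43-only in the wild type at Omp 0.2%), and at 5% mitochondrial Fxyd2 (0.52 and 1.53), Gucy1b2 (1.53, wild type) and Stap1 (0.94, wild type) over Omp-only. Neurod4 became -0.55 over Gap43-only and -1.77 between genotypes without the top Scrublet scores, and -1.92 without its richest cell, a setting also added later. No paired analysis was possible because each genotype has 1 library. The 30 wild-type cells limit every share there.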

Other observations

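Markers of the zones of the epithelium were spread over the transition cells. Nqo1, an oxidoreductase of dorsal neurons, had 3 or more UMIs without Ncam2 in 21.2% of transgenic (14.2 to 29.7%) and 16.7% of wild-type transition cells (5.64 to 34.7%). Ncam2, an adhesion molecule of ventral neurons, had them without Nqo1 in 46.6% (37.4 to 56.0%) of transgenic and 15 of 30 (31.3 to 68.7%) wild-type cells. Both were counted in 3 of 118 and 1 of 30 cells. The Ncam2 share was 54.2% and 37.8% in Gap43-only and 25.4% and 23.2% in Omp-only cells. The Nqo1 share was 5.42% and 5.41% in Gap43-only and 25.6% and 35.7% in Omp-only cells. Nqo1 was counted in 1 of 18 transgene-led cells (5.56%, 0.141 to 27.3%) and in 19 of 74 with an OR and no transgene (25.7%, 16.2 to 37.2%). These genes were chosen after their values had been seen.

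Values of 2 immediate early genes are given without a call over the group, of which Fosb, Arc, Nr4a1 and Npas4 were too low to be measured. Egr1, an activity-induced factor, read 243, 120 and 39.2 CPM across the transgenic and 233, 149 and 28.7 CPM across the wild-type stages, and Fos 292, 248 and 137 CPM and 245, 237 and 106 CPM. The added feature 10G4 had a UMI in 14 of 118 transgenic (11.9%, 6.64 to 19.1%) and 7 of 30 wild-type transition cells (23.3%, 9.93 to 42.3%). Of cells with neither marker, 7.50% and 12.7% had one. Olfr160, the OR gene cited in the name of the construct, had no UMI in transition cells of either library.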
